A study of Mus musculus with 60 samples.

Results

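A set of 10 circadian clock genes was followed through 5 mouse tissues: the output factors Dbp and Tef, the repressors Per1, Per2, Per3 and Ciart, the nuclear receptors Nr1d1 and Nr1d2, and the activators Bmal1 and Npas2. They were taken by symbol, with earlier results of these data known, and are 10 of the 41079 genes in the count table. All 10 were detected well enough to be tested in every tissue.

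The clock is a feedback loop of transcription found in most mammalian cells. BMAL1 pairs with CLOCK or NPAS2 and switches on genes that carry an E-box, among them the Per genes, Nr1d1, Nr1d2, Ciart and Dbp. PER proteins, with the cryptochromes, then block the activators, and NR1D1 and NR1D2 (REV-ERB alpha and beta) repress Bmal1 and Npas2 through elements called ROREs, so that Bmal1 and Npas2 run opposite in phase to Dbp and the REV-ERB genes. DBP and TEF bind D-boxes and pass the rhythm on to output genes, which in liver, pancreas and salivary gland include genes of metabolism and secretion.

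The RNA came from 12 mice, outbred CD1 and inbred C57 (the labels do not state the substrain), with 3 males and 3 females of each. Every mouse gave 1 poly(A) RNA library from each of the parotid, submandibular and sublingual salivary glands, the pancreas and the liver, so each group of tissue, strain and sex held 3 libraries and each tissue had 6 CD1 and 6 C57 libraries, 60 in all. No treatment or engineered allele is named, and the labels used here give neither the hour of collection nor the light schedule, the feeding state or the age. Because clock transcripts change over the day, a difference in level between the strains and a difference in the hour at which the strains were collected cannot be told apart in this design. In bulk tissue, fewer cells of a type and less RNA per cell cannot be told apart either.

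Library totals ran from 29871176 to 66586067 counts, and 3 libraries stood apart by the markers of their tissue. The summed level of 7 acinar markers in the pancreas was 410 CPM (counts-per-million) in CD1 female 2 and 114453 in CD1 female 3, against 765175 to 1049279 in the other 10 pancreas libraries (CPM scaled between libraries can add up to more than the library where a few genes take most reads). The sublingual library of C57 male 2 carried 20383 CPM of 4 submandibular duct markers, against 196 to 579 CPM in the other sublingual libraries. The strain calls of the 10 members in the pancreas are therefore given with and without the first 2 libraries, and those in the sublingual gland with and without the third; values of other genes and the tissue means include them.

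**Figure D1:**
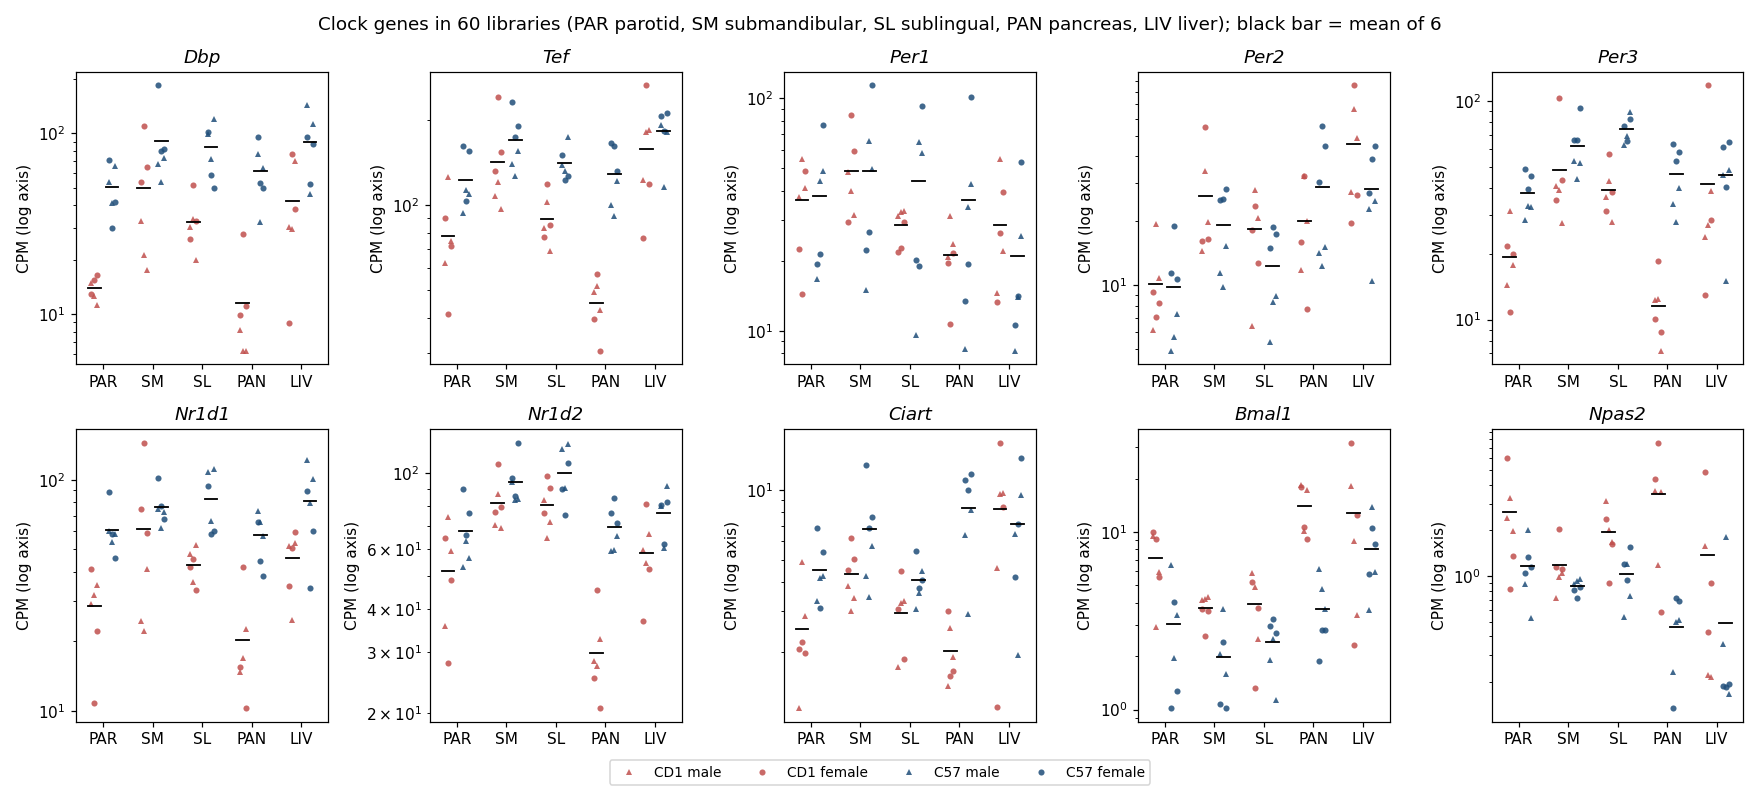
Level of each clock gene in all 60 libraries, in CPM on a log axis, by tissue and strain. Triangles are males and circles are females, and a black bar marks the mean of each 6 libraries. Dbp, Per3 and Nr1d1 lie lower in CD1 than in C57 in the pancreas without overlap or nearly so, Bmal1 lies higher there, and the Per1 points of the strains are mixed in every tissue.

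The level of the clock genes differed between genes far more than between tissues. Per kilobase of the gene length in the table, the tissue means of Dbp lay between 11.8 and 25.6 CPM per kb, those of Tef between 12.5 and 24.4, and those of Nr1d1 between 13.1 and 23.0. Nr1d2 reached 4.89 to 8.90 CPM per kb, Per3 3.13 to 6.17, Per1 2.88 to 5.69, Per2 1.64 to 6.08 and Ciart 1.58 to 3.46. By this measure the activators were the scarcest members, with Bmal1 at 0.148 to 0.540 CPM per kb and Npas2 at 0.218 to 0.465. The place of Bmal1 rests on the gene length used, which is 19362 bases for it and 2219 for Ciart. In mean CPM, Bmal1 was above Ciart in parotid (5.10 against 3.52), pancreas (8.81 against 5.20) and liver (10.5 against 7.68). It was below Ciart in submandibular (2.87 against 5.55) and sublingual gland (3.17 against 3.51), and Npas2 was the lowest member in every tissue. CLOCK, the partner of BMAL1, is encoded by a gene measured at 1.68 to 3.31 CPM per kb, above Bmal1 and Npas2 in every tissue mean.

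Across tissues, Bmal1 and Per2 had the widest ranges. Bmal1 averaged 10.5 ± 8.22 CPM in liver (SD, n = 12), 8.81 ± 6.19 in pancreas, 5.10 ± 3.19 in parotid, 3.17 ± 1.51 in sublingual and 2.87 ± 1.23 in submandibular gland. No 2 neighbours in this order differed at an adjusted p under 0.05. Neighbours here and below were compared in a fit that takes the 5 libraries of an animal as separate. From end to end, the difference was 1.90 ± 0.31 on the log2 scale (± SE; edgeR adjusted p = 5.84e-07). Per2, a period repressor that also answers to other signals, averaged 36.8 ± 21.6 CPM in liver, 24.3 ± 14.9 in pancreas, 22.5 ± 12.5 in submandibular, 15.2 ± 7.06 in sublingual and 9.96 ± 4.71 in parotid. Its liver level exceeded that of the parotid by 1.84 ± 0.25 log2 units (edgeR adjusted p = 1.62e-08), and of the neighbours in the order only liver and pancreas differed (adjusted p = 0.0160).

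Dbp, the D-box-binding activator, was highest in the submandibular gland (70.1 ± 44.7 CPM), then liver (66 ± 39.1), sublingual (58.0 ± 33.4), pancreas (36.8 ± 30.7) and parotid (32.3 ± 22.0). Those values fall into 2 sets, since the only neighbours that differed were sublingual gland and pancreas (1.01 ± 0.24 log2 units, edgeR adjusted p = 0.000399). Tef, its close relative, ran from 171 ± 52.4 CPM in liver to 87.2 ± 49.1 in pancreas, a difference of 1.18 ± 0.15 log2 units (edgeR adjusted p = 2.47e-09). Per1 was highest in the submandibular gland (48.8 ± 28.6 CPM) and lowest in liver (24.7 ± 16.2), Per3 highest in sublingual (56.6 ± 20.9) and about equally low in pancreas (28.8) and parotid (28.6 ± 12.1), and Ciart highest in liver (7.68 ± 4.41) and lowest in sublingual (3.51 ± 1.06). Nr1d1 and Nr1d2 stayed within a factor of 2 over the tissues, at 38.9 to 68.5 CPM and 49.7 to 90.5 CPM, both lowest in the pancreas. For Npas2, the tissue means of 0.928 to 1.98 CPM were near their own SDs, and the highest (pancreas, SD 2.33) did not pass the test against the lowest (liver, SD 1.37) at an adjusted p of 0.0629. With the 5 libraries of an animal kept together as a block that pair passed (1.08 log2 units, edgeR adjusted p = 0.0134). Npas2 was higher than in liver in the parotid (1.41 ± 0.40 log2 units, edgeR adjusted p = 0.00159) and the sublingual gland (1.02 ± 0.39, 0.0188), and its fitted level in the parotid was above that in the pancreas by 0.54 log2 units, which did not pass.

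Of the 10 pairs of tissues, a member counted as different where its adjusted p was under 0.05 and its fold at least 2. The count was 5 of 10 members for parotid against liver, where 50.2% of all genes tested met the same rule, and 4 for sublingual gland against liver, where 48.9% did. It was 4 for submandibular gland against pancreas (28.7% of all genes), 3 for sublingual gland against pancreas (31.7%), 2 each for parotid against submandibular gland (21.3%), pancreas against liver (42.8%) and submandibular gland against liver (45.8%), and 1 for parotid against pancreas (26.3%). No member passed between the parotid and sublingual glands (26.7%) or between the submandibular and sublingual glands (14.9%). The members' share was below that of all genes in every pair except submandibular gland against pancreas. In the pairs with no member, DESeq2 called none either. These counts come from a fit that takes the 5 libraries of an animal as separate. With each animal as a block, the count was 4 for parotid against liver and 3 for pancreas against liver. For the other pairs it was unchanged.

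The promoters of 9 members (12 starts) were read from RefSeq (GRCm38.p6), each from 250 bases before to 50 bases after a start; Per2 was not among them, and Bmal1 is listed there as Arntl. They were searched on both strands for the E-box CACGTG, held by 7.15% of all 32851 promoters in that set, the variant E-box CACGTT (4.68%), the D-box TTATGTAA or TTACGTAA (1.06%) and the RORE core TAGGTCA or TGGGTCA (6.45%). Ciart, Per3, Tef and Bmal1 are shown because they carry the 3 kinds of element through which the loop is known to act; capitals mark the matches.
Ciart, chr3:95882179-95882478, minus strand: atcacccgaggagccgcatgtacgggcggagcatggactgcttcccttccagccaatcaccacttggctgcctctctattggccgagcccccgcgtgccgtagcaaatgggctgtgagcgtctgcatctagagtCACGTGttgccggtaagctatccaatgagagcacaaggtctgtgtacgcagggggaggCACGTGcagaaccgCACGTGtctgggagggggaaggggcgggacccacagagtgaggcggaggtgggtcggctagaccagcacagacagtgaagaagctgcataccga
Per3, chr4:151044616-151044915, minus strand: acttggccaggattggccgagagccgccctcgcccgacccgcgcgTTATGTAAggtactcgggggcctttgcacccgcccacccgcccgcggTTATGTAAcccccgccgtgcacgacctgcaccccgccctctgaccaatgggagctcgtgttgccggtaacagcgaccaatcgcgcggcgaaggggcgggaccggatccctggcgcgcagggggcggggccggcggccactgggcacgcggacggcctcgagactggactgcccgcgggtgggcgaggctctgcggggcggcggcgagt
Tef, chr15:81811164-81811463, plus strand: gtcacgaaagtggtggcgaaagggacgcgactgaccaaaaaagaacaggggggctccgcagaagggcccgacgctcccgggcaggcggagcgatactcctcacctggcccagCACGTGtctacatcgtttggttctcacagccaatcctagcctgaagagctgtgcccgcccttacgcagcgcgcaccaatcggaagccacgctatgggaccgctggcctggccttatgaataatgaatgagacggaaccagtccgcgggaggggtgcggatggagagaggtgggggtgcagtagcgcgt
Bmal1, chr7:113207261-113207560, plus strand: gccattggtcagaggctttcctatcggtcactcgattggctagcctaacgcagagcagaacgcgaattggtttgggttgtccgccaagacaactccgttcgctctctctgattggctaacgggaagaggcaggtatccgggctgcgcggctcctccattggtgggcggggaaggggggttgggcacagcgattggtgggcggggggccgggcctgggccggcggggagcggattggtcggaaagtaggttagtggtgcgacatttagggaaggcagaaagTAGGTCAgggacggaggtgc

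The Ciart window held 3 E-boxes, 116, 58 and 44 bases before the start, and no other member start had more than 1. Each of the 2 Tef starts had 1 E-box (138 bases before the start shown), as did 1 of the 2 Per1 starts, 166 bases before it. Per3 was the only member with a D-box here, and it had 2 of them, 205 and 158 bases before the start. The RORE core of Bmal1 began 30 bases after the start shown and is outside the window of its other start. Nr1d1 held 1 variant E-box 28 bases before its start. None of these letters occurred in the windows of Dbp, Nr1d2 and Npas2; such a window says nothing of elements elsewhere in the gene.

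**Figure D2:**
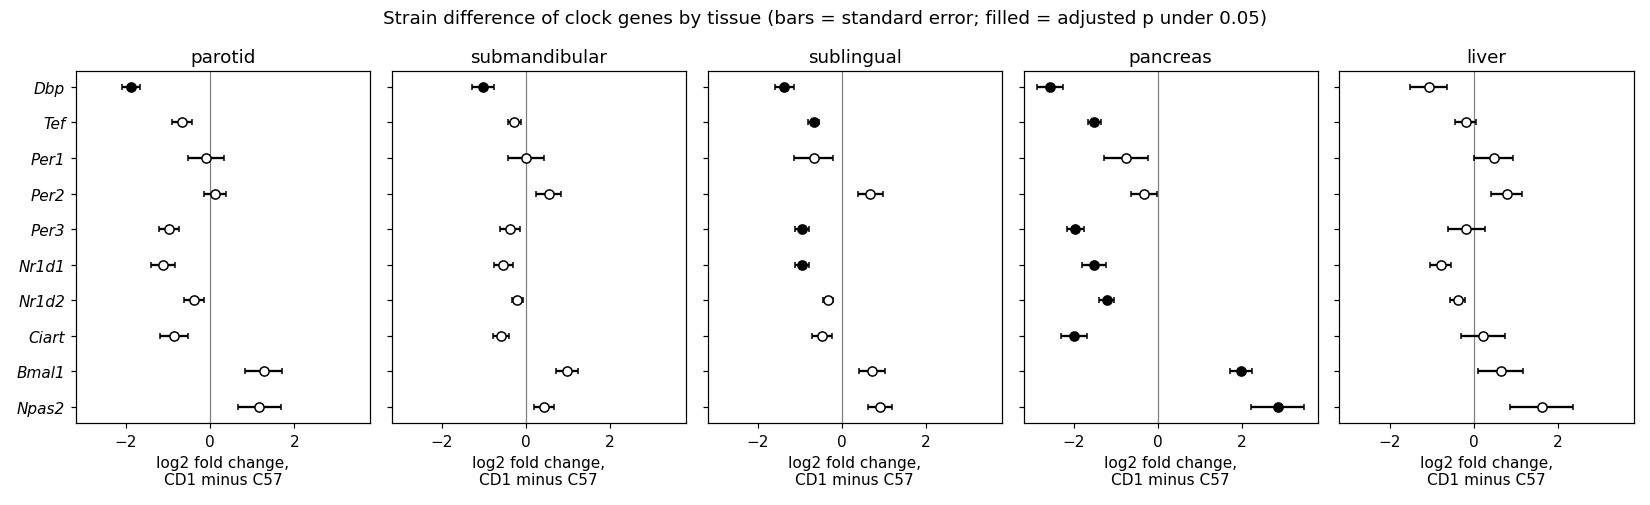
Log2 fold change, CD1 minus C57, of each clock gene in each tissue, with bars for the standard error and filled points for an adjusted p under 0.05. In the pancreas 8 of 10 points are filled, 6 to the left of 0 and 2 to the right, and in the liver none is.

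In the pancreas, 8 of the 10 clock genes differed between the strains, 6 lower and 2 higher in CD1, where 3.74% of all 16262 genes tested did, 1.96% lower and 1.78% higher. Dbp, Tef, Per3, Nr1d1, Nr1d2 and Ciart were the lower ones, Bmal1 and Npas2 the higher, and Per1 and Per2 did not pass. As the members were chosen with earlier results of these data known, the share of all genes stands beside the count as a description. Members with all 6 CD1 libraries below all 6 C57 libraries numbered 4, a pattern that 3.47% of genes tested showed, and Bmal1 had all 6 above (1.79%).

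Dbp in the pancreas (listed exon chr7:45354658-45355186 in GRCm39, plus strand) measured 9.88, 27.6 and 11 CPM in CD1 females 1 to 3 and 8.23, 6.26 and 6.26 in CD1 males 1 to 3. The C57 females held 95.1, 53.2 and 49.8 CPM and the C57 males 77.0, 32.5 and 64.6. The highest CD1 library, female 2, was below the lowest C57 library, and the log2 fold change was -2.56 ± 0.31 (edgeR adjusted p = 0.00167). Tef (chr15:81686874-81687087) ran from 30.5 to 57.2 CPM in CD1 with a median of 45.9, and from 92.1 to 166 in C57 with a median of 127, again without overlap (log2 fold change -1.51 ± 0.16, edgeR adjusted p = 0.000949).

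Per3 (chr4:151081475-151082185, minus strand), the period gene with the D-boxes shown, followed the same pattern in the pancreas. Its CD1 libraries held 7.18 to 18.5 CPM with a median of 11.2, and its C57 libraries 27.9 to 63.6 with a median of 46.6, a log2 fold change of -1.96 ± 0.21 (edgeR adjusted p = 0.000822). Ciart (chr3:95785812-95786461, minus strand), a repressor of the BMAL1 and CLOCK pair, was at 1.43 to 3.02 CPM in CD1 and 2.92 to 11.7 in C57, where C57 male 2 alone fell into the CD1 range (log2 fold change -1.99 ± 0.30, edgeR adjusted p = 0.00716). Per1 (chr11:68985934-68986129), which responds within hours to light and hormone signals as well as to the loop, ran from 10.7 to 31.2 CPM in CD1 and 8.39 to 101 in C57, and Per2 (chr1:91343699-91345742, minus strand) from 7.67 to 32.4 and 12.2 to 55.7. Those ranges overlapped widely, with log2 fold changes of -0.76 and -0.33 that did not pass.

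Nr1d1 (chr11:98658758-98659245, minus strand), the main REV-ERB gene, lay at 10.3 to 42.1 CPM in the pancreas of CD1 (median 16.2) and 38.5 to 73.6 in that of C57 (median 61.3). CD1 female 2 was the library that overlapped. The log2 fold change was -1.52 ± 0.29 (edgeR adjusted p = 0.0235). Nr1d2 (chr14:4230549-4230885) had no overlap, at 20.6 to 45.5 CPM in CD1 against 59.3 to 84.4 in C57 (log2 fold change -1.22 ± 0.17, edgeR adjusted p = 0.00410).

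Both activators went the other way in the pancreas. Bmal1 (chr7:112777820-112777919) measured 17.8, 10.7 and 9.18 CPM in CD1 females 1 to 3 and 18.4, 10.2 and 17.3 in CD1 males 1 to 3, against 1.87, 2.80 and 2.80 in C57 females and 6.19, 4.79 and 3.67 in C57 males. Every CD1 library was above every C57 library, with a log2 fold change of 1.98 ± 0.26 (edgeR adjusted p = 0.00256). Npas2 (chr1:39233013-39233090) was low in C57, at 0.134 to 0.717 CPM from 2 to 11 counts, and ran from 0.577 to 7.61 CPM in CD1, where female 3 alone overlapped (log2 fold change 2.85 ± 0.63, edgeR adjusted p = 0.0346). Without the pancreas libraries of CD1 females 2 and 3, which were low in acinar markers, the same 8 of 8 members passed, at adjusted p-values of 1.40e-05 to 0.00504, and the fold change of Dbp was -2.92 and that of Bmal1 2.22. Leaving out any 1 CD1 male or any 1 C57 animal ended the calls of Nr1d1 (edgeR adjusted p 0.0528 to 0.0731) and Npas2 (0.0629 to 0.106). The other 6 members passed in each of the 12 fits that left out 1 animal. The summed level of 6 lymphoid markers was 5.96 to 627 CPM in the pancreas of CD1, highest in female 3, and 2.11 to 9.37 in that of C57. All 6 had an unadjusted p under 0.05 and edgeR called none. The sum of 3 red cell markers was 60.2 to 2115 and 100 to 338 CPM, with 2 of 3 at an unadjusted p under 0.05 and none called. Their part in the result was not tested.

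In the sublingual gland, 4 members were lower in CD1 and none higher by the test, where 14.8% of the genes tested differed and 7.36% were lower. Dbp ran from 19.9 to 51.8 CPM in CD1 (median 31.5) and 49.7 to 120 in C57 (median 85.8), and only CD1 female 2 was above the lowest C57 library (log2 fold change -1.37 ± 0.22, edgeR adjusted p = 0.00193). Per3 lay at 27.8 to 57 CPM in CD1 and 63.0 to 89.1 in C57, Tef at 68.8 to 120 and 123 to 174, and Nr1d1 at 33.4 to 52.2 and 58.2 to 111. None of the last 3 overlapped between the strains, a pattern with CD1 lower that 3.69% of genes tested showed. Their log2 fold changes were -0.95 ± 0.16 for Per3 (edgeR adjusted p = 0.00223), -0.67 ± 0.13 for Tef (0.00656) and -0.95 ± 0.17 for Nr1d1 (0.00313).

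Npas2, at 0.897 to 3.11 CPM in the sublingual gland of CD1 and 0.537 to 1.56 in that of C57, had a log2 fold change of 0.91 that narrowly missed the threshold (adjusted p = 0.0532). Nr1d2 also missed it, at -0.33 (0.0796), as did Bmal1 at 0.71 and Per2 at 0.67. Without the sublingual library of C57 male 2, which carried submandibular duct markers, 6 members passed: the 4 above, Nr1d2 (-0.38, edgeR adjusted p = 0.0457) and Npas2 (1.11, 0.0287). Per2 passed without CD1 male 1 (0.88, 0.00945), and Bmal1 (0.91, 0.0456) and Npas2 (1.06, 0.0332) without CD1 female 2. Red cell markers summed to 25.5 to 87.8 CPM in CD1 and 11 to 52.3 in C57 in this gland, with 2 of 3 called higher in CD1; their part in the result was not tested.

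In the parotid, Dbp was the only member that passed, at a background of 2.02% of genes tested. Its 6 CD1 libraries held 14.9, 12.6, 11.2, 13, 15.5 and 16.5 CPM (males 1 to 3, then females 1 to 3) and its C57 libraries 53.5, 41.1, 65.9, 71.7, 29.8 and 41.8. The CD1 values lay close together and all below C57, with a log2 fold change of -1.88 ± 0.22 (edgeR adjusted p = 0.00154). Nr1d1 did not overlap between the strains either, at 10.8 to 41.1 CPM in CD1 and 46.1 to 88.9 in C57 (a pattern with CD1 lower that 1.7% of genes tested showed), but its log2 fold change of -1.13 ± 0.29 did not pass (edgeR adjusted p = 0.0747).

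Per3 in the parotid, at 10.8 to 31.5 CPM in CD1 and 28.5 to 49.0 in C57, came to -0.98 ± 0.23 (edgeR adjusted p = 0.0559), and Bmal1, at 2.91 to 9.99 and 1.02 to 6.51 CPM, to 1.27 ± 0.44 (0.142). A CD1 and a C57 animal of the same sex and number deviated together in this gland, by a check of all genes given with the processing, and with these pairs as a block 5 members passed. They were Dbp (log2 fold change -1.83, edgeR adjusted p = 0.0116), Per3 (-1.05, 0.0266), Nr1d1 (-1.20, 0.0296), Tef (-0.73, 0.0463) and Bmal1 (1.38, 0.0473). Without the block, leaving out CD1 female 1 brought Nr1d1 (-1.42, 0.0110) and Per3 (-1.07, 0.0260) past the threshold, and leaving out CD1 male 2 brought Per3 (-1.18, 0.0243). Lymphoid markers in the parotid summed to 3.93 to 811 CPM in CD1 and 0.953 to 444 in C57, and 5 adipocyte markers to 7.05 to 200 and 31.7 to 1264. EdgeR called none of them, with 6 of 6 lymphoid and 2 of 5 adipocyte markers at an unadjusted p under 0.05. Their part in the result was not tested.

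In the submandibular gland, Dbp again was the only member past the threshold, where 4.75% of all genes passed. Its CD1 libraries ran from 17.6 to 109 CPM (median 43.4) and its C57 libraries from 53.9 to 185 (median 76.3), and the strains overlapped (log2 fold change -1.03 ± 0.26, edgeR adjusted p = 0.0398). That call was lost when any of CD1 males 2 and 3, CD1 females 1 and 3, the 3 C57 males or C57 female 1 was left out (adjusted p 0.0631 to 0.1). Bmal1, at 2.61 to 4.31 CPM in CD1 and 1.02 to 3.68 in C57, had a log2 fold change of 0.96 ± 0.26 (edgeR adjusted p = 0.0552). Without CD1 female 2, which was the highest CD1 library for all 3 of Dbp, Per3 and Nr1d1 in this gland, Per3 (-0.69, adjusted p = 0.0115), Nr1d1 (-0.78, 0.0204) and Bmal1 (1.03, 0.0393) passed, and Bmal1 passed as well without C57 male 2 (1.17, 0.0292) or C57 female 2 (1.21, 0.0154). In this gland 4 parotid acinar markers summed to 2681 to 5398 CPM in CD1 and 1447 to 3569 in C57, with 3 of 4 at an unadjusted p under 0.05 and 1 called higher in CD1. Red cell markers summed to 36.6 to 181 and 18.9 to 128 CPM and adipocyte markers to 1.97 to 43.5 and 1.09 to 8.95, with 2 of 3 and 2 of 5 at an unadjusted p under 0.05 and none called. Their part in the result was not tested.

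In the liver, no member passed edgeR's test, although 14.1% of all genes tested did; 2 members had an unadjusted p under 0.05, and DESeq2 called 1, Nr1d1. Dbp ran from 9 to 76.7 CPM in CD1 (median 34.4) and from 46.0 to 144 in C57 (median 91.7), with a log2 fold change of -1.07 ± 0.44 (edgeR adjusted p = 0.123), and Nr1d1 from 24.7 to 59.7 and 34.2 to 122 (-0.78 ± 0.25, 0.0536). The CD1 livers spread widely. CD1 female 1 held 9 CPM of Dbp, 1.16 of Ciart and 12.9 of Per3 with 31.9 of Bmal1 and 4.86 of Npas2, whereas CD1 female 2 held 76.7, 15.9 and 118 with 2.31 and 0.427. Without CD1 female 2, Dbp (-1.48, adjusted p = 0.0321) and Nr1d2 (-0.56, 0.0180) passed, and Nr1d1 passed without CD1 female 3 (-0.87, 0.0495) or C57 female 2 (-0.93, 0.0224). Red cell markers summed to 273 to 634 CPM in the liver of CD1 and 111 to 299.7 in that of C57, with 2 of 3 called higher in CD1; their part in these values was not tested. Missing the threshold does not show that the strains were alike in the liver.

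Over the 5 tissues, the fitted difference had the same sign throughout for 7 members. Dbp, Tef, Per3, Nr1d1 and Nr1d2 were lower in CD1 in 5 of 5 tissues, and Bmal1 and Npas2 higher in 5 of 5. The same 12 animals gave all tissues, so these are not 5 independent results. Ciart was lower in 4, Per1 lower in 4 and Per2 higher in 4, with no call for either Per gene in any tissue and log2 fold changes of -0.76 to 0.48 and -0.33 to 0.78.

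The size of the strain difference depended on the tissue for 4 members, where 10.1% of the 22062 genes tested did by the same F test over all 60 libraries. They were Tef (edgeR adjusted p = 0.0124), Nr1d2 (0.0207), Per3 (0.0281) and Ciart (0.0399). For each, the pancreas had the most negative fold change of the 5 tissues. Tef came to -1.51 there against -0.68 to -0.20 log2 units elsewhere, and Ciart to -1.99 against -0.87 to 0.22. Dbp did not pass (0.0861), nor did Npas2 (0.196), Nr1d1 (0.361), Per2 (0.387), Bmal1 (0.428) and Per1 (0.655). With each animal as a block, a pairing that the library names give, the same 4 passed and Dbp joined them (0.0101). Without the 3 libraries that stood apart by their markers, Nr1d2 alone passed, with Tef at 0.0554, Per3 at 0.0826 and Ciart at 0.244. Leaving out 1 animal ended the call of Tef for 4 of the 12 animals (CD1 male 3, C57 males 2 and 3 and C57 female 2), of Per3 for 9 (all but the 3 CD1 females), of Nr1d2 for 9 (all but CD1 females 1 and 2 and C57 female 3) and of Ciart for 11 (all but CD1 female 1), and for Dbp it brought a call without CD1 female 1 (0.0228).

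**Figure D3:**
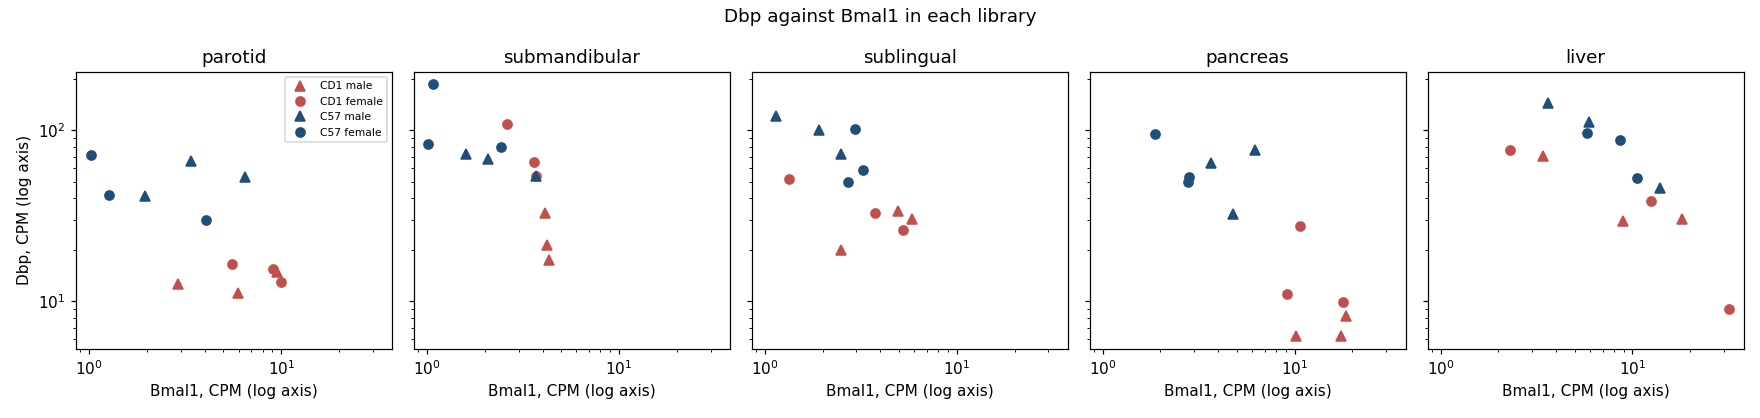
Dbp against Bmal1 in each library, in CPM on log axes, 1 panel a tissue. In the parotid and pancreas all 6 CD1 libraries lie below all C57 libraries in Dbp, in the pancreas they lie to the right in Bmal1 as well, and in the liver the strains mix.

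Dbp and Bmal1, whose fitted strain differences had opposite signs, were also set against each other within each library. The log2 ratio of Dbp to Bmal1 (in CPM, no length correction) had a median of -0.78 in the pancreas of CD1, with a range of -1.47 to 1.37, and 4.15 in that of C57, with a range of 2.76 to 5.67. In the parotid the medians were 0.84 (0.38 to 2.11) and 4.34 (2.88 to 6.14). All 6 CD1 libraries were below the lowest C57 library in both tissues, 5 of 6 in the sublingual gland (medians 2.89 and 4.97), 4 in the submandibular gland (3.43 and 5.28) and 3 in the liver (1.67 and 3.70). The ratio was set up after both genes were known to differ, and is given without a test.

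Sex was the second contrast, and only the submandibular gland, whose ducts are known to differ between male and female mice, had members that passed. Dbp, Tef, Nr1d1 and Ciart were lower in males, where 17.2% of genes tested differed by sex and 8.03% were lower in males. Dbp measured 23.8 ± 7.89 CPM in CD1 males and 76.0 ± 29.2 in CD1 females (SD, n = 3), and 64.8 ± 9.72 in C57 males and 116 ± 59.8 in C57 females. Males were the lower in both strains, with a log2 fold change of -1.29 ± 0.26 (edgeR adjusted p = 0.00433). Nr1d1 held 29.3 ± 10.2 and 92.9 ± 45.8 CPM in CD1 males and females and 69.9 ± 6.86 and 82.1 ± 17.6 in C57 (log2 fold change -0.98 ± 0.23, edgeR adjusted p = 0.00989). Ciart held 3.42 ± 0.415 and 5.24 ± 0.850 CPM in CD1 and 4.46 ± 1.14 and 9.08 ± 3.18 in C57 (-0.85 ± 0.20, 0.00936).

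Tef in the submandibular gland came to 109 ± 11.8 CPM in CD1 males, 177 ± 58.1 in CD1 females, 141 ± 13.9 in C57 males and 199 ± 29.7 in C57 females (log2 fold change -0.63 ± 0.16, edgeR adjusted p = 0.0179), a call lost without C57 male 2 (0.0549). Per3 (-0.70, 0.0541) and Per2 (-0.76, 0.105) did not pass, although Per3 did without CD1 female 1 (-0.83, 0.0198) or CD1 female 3 (-0.80, 0.0363). With DESeq2 Per3 passed (adjusted p = 0.0204). In edgeR with no filter on low counts, Per3 (adjusted p = 0.00679) and Per2 (0.0112) both passed. Among the other core clock genes described further on, 5 of 10 were also lower in males and none higher: Rora (-1.41 ± 0.19, edgeR adjusted p = 0.000279), Cry2 (-0.86 ± 0.16, 0.00280), Cry1 (-0.78 ± 0.21, 0.0206), Nfil3 (-0.83 ± 0.23, 0.0254) and Hlf (-0.76 ± 0.24, 0.0443). The summed level of 4 duct markers, Egf among them, was 31574 to 104781 CPM in the 6 males and 316 to 1758 in the 6 females; its part in the sex difference was not tested. In the other 4 tissues no member passed for sex by edgeR, where 0.0319% of genes did in parotid, 0.0691% in sublingual gland, 0.0307% in pancreas and 2.64% in liver, with 4 members at an unadjusted p under 0.05 in the pancreas and 0 in parotid, sublingual gland and liver, and DESeq2 called none. No member passed a test of whether the sex difference itself differed between strains, in any tissue, with 1 member at an unadjusted p under 0.05 in each and no call by DESeq2; the share of all genes was 0% in parotid and pancreas, 0.0226% in submandibular gland, 0.0106% in sublingual gland and 0.0479% in liver.

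**Figure D4:**
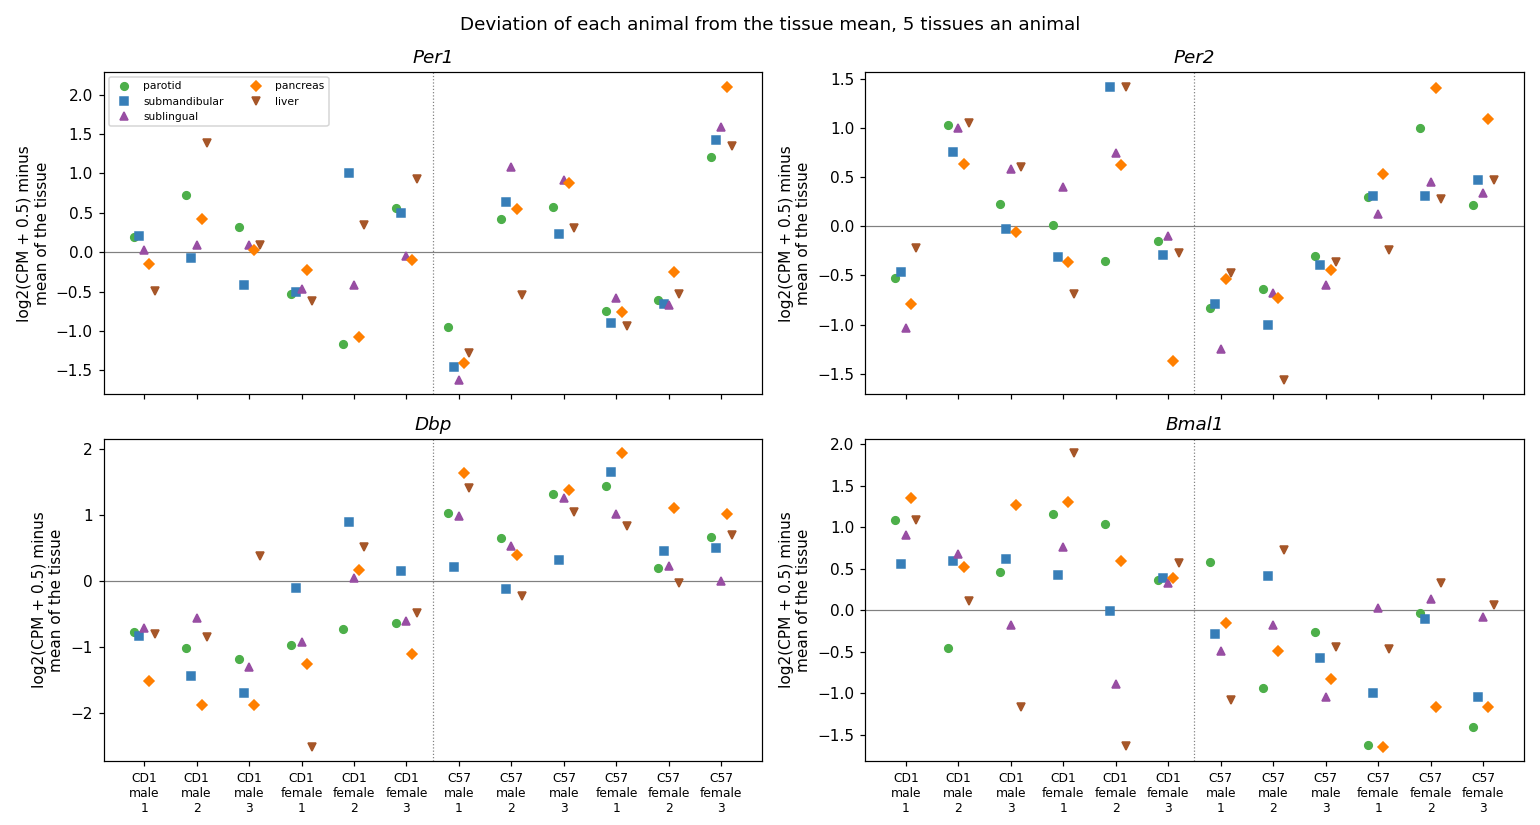
Deviation of each library from the mean of its tissue, log2(CPM + 0.5), for the 12 animals along the x axis and the 5 tissues of each as points. The 5 points of C57 male 1 and of C57 female 3 for Per1 lie together below and above 0, while for Dbp the CD1 animals other than female 2 average below 0 and all C57 animals above it.

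Per1 and Per2, which passed for strain in no tissue, varied between individual mice. For Per1, 6 of the 12 mice lay on the same side of the tissue mean in 5 of 5 tissues, 2 above and 4 below, and for Per2 8 of the 12 did, 3 above and 5 below. Such mice were not particular to Per1 and Per2, since every other member also had mice on the same side in 5 of 5. Deviations from the tissue mean include the strain and sex differences, which the shares of the sum of squares given below leave out. Per1 in C57 male 1 was the lowest C57 level in every tissue, from 8.19 CPM in the liver to 16.7 in the parotid. In C57 female 3 it was the highest, from 53.2 CPM in the liver to 114 in the submandibular gland. Those 2 mice deviated from their tissue means by -1.34 ± 0.25 and 1.53 ± 0.34 log2 units (SD over 5 tissues), in the same direction in 5 of 5.

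For Per2, CD1 male 2 was above the tissue mean in 5 of 5 tissues (0.90 ± 0.19 log2 units), as were C57 females 2 and 3, while CD1 male 1, CD1 female 3 and C57 males 1, 2 and 3 were below it in 5 of 5. After the means of the 20 groups were taken out, differences between animals held 84.1% of the remaining sum of squares of Per1 over the 60 libraries, 70.6% of that of Per2 and 63.3% of that of Dbp. For the other members the share was 42.0% (Bmal1), 39.2% (Per3), 37.6% (Nr1d1), 36.7% (Npas2), 35.7% (Tef), 33.7% (Ciart) and 18.6% (Nr1d2). Over the 10812 genes with a mean of at least 5 CPM, the median was 24.5%, the 5th percentile 10.04% and the 95th 45.0%, and 20% is what the degrees of freedom alone give. Without the pancreas the shares of Per1, Per2 and Dbp were 82.9%, 67.7% and 58.6%. Per1, Per2 and Dbp were thus above the 95th percentile of genes, as a description of these 12 mice.

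Among the 10 other core clock genes tested, which include Clock, Bmal2, the cryptochromes, Bhlhe40, Bhlhe41, Nfil3 and Hlf, 2 passed for strain in the parotid (2.02% of all genes), 2 in the submandibular gland (4.75%), 5 in the sublingual gland (14.8%), 4 in the pancreas (3.74%) and 1 in the liver (14.1%). Rorb was too low to test in any tissue. Bhlhe41, a repressor that competes at E-boxes, was lower in CD1 in 4 tissues, with log2 fold changes of -1.71 ± 0.22 in parotid (edgeR adjusted p = 0.00312), -1.21 ± 0.29 in pancreas (0.0459), -0.75 ± 0.17 in sublingual (0.0118) and -0.69 ± 0.16 in submandibular gland (0.0240). In the parotid its CD1 libraries held 4.06 to 5.94 CPM and its C57 libraries 11.4 to 35.5, without overlap. Cry2, a cryptochrome repressor, was lower in CD1 in parotid (-1.03, 0.0285) and pancreas (-1.05, 0.00264), and its paralog Cry1 was higher in pancreas (0.99, 0.0355) and sublingual gland (0.91, 0.0464). Bhlhe40 (-0.55, 0.00321) and Clock (0.40, 0.0278) passed in the sublingual gland alone. Rora, Nfil3 and Hlf passed in no tissue.

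Bmal2, the paralog of Bmal1, differed in both directions. It was lower in CD1 in the pancreas (0.628 to 3.46 CPM against 13.3 to 15.3 in C57, log2 fold change -2.72 ± 0.36, edgeR adjusted p = 0.00271) and in the liver (0 to 0.327 against 0.684 to 1.78 CPM, -2.87 ± 0.49, 0.00193). It was higher in CD1 in the submandibular (1.94 to 5.82 against 0.658 to 1.98 CPM, 1.5 ± 0.25, 0.00347) and sublingual glands (1.65 to 5.57 against 1.61 to 2.21 CPM, 1.24 ± 0.25, 0.00724). The F test over tissues called this difference (edgeR adjusted p = 8.56e-11). In the pancreas Bmal1 and Bmal2 therefore went in opposite directions between the strains.

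Beyond the loop itself, 2 lists were counted. Of 13 genes for proteins that modify clock proteins (casein kinases, ubiquitin ligase parts and others), edgeR called none in parotid, submandibular gland or pancreas (0, 1 and 0 at an unadjusted p under 0.05). Usp2, a deubiquitinase, was the 1 called in the sublingual gland, lower in CD1 (-0.71, edgeR adjusted p = 0.0495), where 14.8% of all genes passed. Csnk1e was the 1 called in the liver, higher in CD1 (0.58, edgeR adjusted p = 0.0471), where 14.1% did. Of 18 known clock outputs, 5 passed in the sublingual gland, 3 in the submandibular, 2 each in pancreas and liver and 1 in the parotid. The shares of all genes were 14.8%, 4.75%, 3.74%, 14.1% and 2.02% in that order, so the 2 of 18 in the liver were below the background. Lpin1, a phosphatidate phosphatase, was the lower one in the parotid (-1.27, edgeR adjusted p = 0.0259), and Leo1, a transcription elongation factor, was higher in submandibular (0.72, 0.0214), sublingual (1.03, 0.000604) and pancreas (1.31, 0.0150). The median fold change over the 18 outputs was between -0.29 and 0.30 in the 5 tissues, against -0.01 to 0.08 for all genes.

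Signals that reach the clock from outside were read from 3 more lists. Of 10 genes known to respond to glucocorticoids, 1 of 9 tested passed in the sublingual gland (Mt1, -0.78, edgeR adjusted p = 0.00197), where 14.8% of all genes did. In the liver 1 of 10 passed (Lcn2, -2.20, edgeR adjusted p = 0.0458), where 14.1% of all genes did, so both counts were below the background. EdgeR called none in parotid, submandibular gland and pancreas, where 2, 1 and 0 had an unadjusted p under 0.05. By sex, 6 of the 10 passed in the submandibular gland, 5 higher and 1 lower in males, with a median log2 fold change of 0.72 (17.2% of all genes passed, with a median of -0.02). Of 10 genes known to respond to temperature, the liver had 4 higher in CD1 (14.1% of all genes differed there), led by Hspa1a, a heat shock protein (4.13 ± 0.28, edgeR adjusted p = 1.06e-06), and Dnajb1 was the higher one in parotid (0.90, 0.0332), sublingual gland (0.40, 0.0118) and pancreas (0.99, 0.0421). Those with an unadjusted p under 0.05 numbered 7 of 10 in the pancreas and 7 in the liver, 6 in the sublingual gland, 3 in the parotid and 2 in the submandibular gland, and the list's median log2 fold change in the pancreas was 0.63, against 0.08 for all genes. Cirbp, the cold-induced RNA-binding protein, was lower in CD1 in submandibular (-0.62, 0.0267) and sublingual gland (-0.50, 0.0156). Of 12 genes of fasting and feeding, 4 passed in the liver (14.1% of all genes did), 3 of them lower in CD1, led by Igfbp1 (-2.30 ± 0.33, edgeR adjusted p = 0.000632). EdgeR called none in the other tissues. Of 11 tested there, 7 in parotid, 2 in submandibular gland and 1 each in sublingual gland and pancreas had an unadjusted p under 0.05. In the parotid the median log2 fold change of this list was -1.72, against 0.00014 for all genes. Its summed level there was 340 to 590 CPM in CD1 and 698 to 12219 in C57, without overlap. The part of these genes in the clock differences was not tested.

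The genes most like Dbp were sought by Pearson's r of log2(CPM + 0.5) over the 60 libraries after the mean of each tissue was taken out, among 10811 genes with a mean of at least 5 CPM. Libraries of 1 animal share that animal, and the strain difference is part of r. Among members, Tef (r = 0.83), Per3 (0.83), Nr1d1 (0.81), Nr1d2 (0.75) and Ciart (0.71) ranked 2, 3, 4, 12 and 20 from the top, and Bmal1 (-0.76) was 5th from the bottom. Per2 (0.06) and Per1 (-0.04) were near 0. Among the 10 other genes highest in r were Rsad1 (0.83), Pisd-ps3 (0.79), Hjurp (0.79), 2610507I01Rik (0.78), Rpl34 (0.77), Rpl29 (0.76), Rpl21 (0.76), Gadd45gip1 (0.74) and Hnrnpa3 (0.74). The 10 lowest were Gm53666 (-0.81), Mesd, Galnt11, Gm51522, Rps18-ps4, Lgalsl, Spopl, Tdg-ps2, Tma7-ps and Ciapin1 (-0.74).

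With the mean of each group of tissue, strain and sex taken out instead, so that the strain difference is no longer part of r, Per3 (r = 0.74), Tef (0.70) and Ciart (0.62) ranked 1, 2 and 3 of 10811, and Bmal1 (-0.63) was the lowest of all. Nr1d1 (0.50) and Nr1d2 (0.49) ranked 17 and 19, Per2 (0.33) 277 and Per1 (-0.12) 7400, and Npas2, with a mean under 5 CPM, was not compared. Of the 10 other genes highest in r above, 1, Hjurp (0.56), was again among the 10 highest, and of the 10 lowest none was. The likeness of Per3, Tef, Ciart, Nr1d1 and Nr1d2 to Dbp was thus present between animals of 1 strain and sex, while that of Per1 was not and that of the ribosomal protein genes Rpl29 (-0.01) and Rpl21 (-0.09) was near 0.

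Several members overlap other genes by RefSeq spans in GRCm38, and whether the counting used strand is not given in the sources used here. Sphk2 overlaps Dbp, and its strain log2 fold changes were -0.36 in liver and -0.13 to -0.04 in the other 4 tissues, none called. Thra overlaps Nr1d1, and at -0.45 in sublingual (edgeR adjusted p = 0.00887) and -0.42 in submandibular gland (0.0479) it was lower in CD1, with -0.28 in parotid, -0.17 in pancreas and -0.02 in liver. The mean CPM of Sphk2 was 59.0% to 119% of that of Dbp over the tissues, and that of Thra 36.2% to 143% of that of Nr1d1. Reads from the overlapping ends could not be told apart there. The partners of Per3 (Uts2), Per2 (Gm35591) and Bmal1 (Gm33721) reached at most 0.237%, 10.7% and 4.98% of the member's mean CPM, and that of Ciart (C920021L13Rik) at most 23.4%. Npas2 overlaps the pseudogenes Gm20428, Gm17904 and Gm3617 by 1053, 2452 and 623 bases, and their levels are not given here.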

How the data were processed

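The authors deposited 1 table of raw read counts per gene for the 60 libraries, which per the submitters' processing notes came from Trim Galore, HISAT2 and featureCounts on GRCm39; versions and the strand setting are not given in the sources used here. The 2 reads of a pair appear to have been counted separately, since even counts from 1 to 20 outnumbered odd ones 1.68 to 1. Levels are CPM with TMM scaling over the 60 libraries, and CPM per kb uses the table's gene length. Differences were tested with edgeR 4.0.16 (R 4.3.3) by its quasi-likelihood test of counts, with its default filter on low counts, Benjamini-Hochberg adjustment over all genes tested and a threshold of 0.05; an SE is the log2 fold change over the square root of F. Each tissue had a fit of 4 group means of strain and sex; strain is CD1 minus C57 and sex male minus female, each averaged over the other. Tissue pairs and the F test of strain by tissue (4 degrees of freedom) came from 20 group means over 60 libraries, without a block for the animal. The scripts were tested on simulated data. The 12 libraries a tissue are separate mice per the labels.

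All 10 members are named. Genes of other lists are named where the list is of core clock genes or the gene had the smallest p in its direction; for likeness to Dbp, the 10 highest and the 10 lowest. A few genes are not reported here. Members and lists were chosen with earlier results of these data known. Alternatives were DESeq2 1.42.0, other scaling, no filter, a replicate block, all libraries in 1 fit, each animal left out and 3 unlike libraries left out. Same-numbered CD1 and C57 animals of a sex deviated together in the parotid (r over all genes 0.167 to 0.439 in 6 of 6 pairs), but over the 5 tissues r ran from -0.404 to 0.439, so the block is given beside the results there and as an alternative elsewhere; no label says what the pairs share. Libraries of 1 animal are paired by their names, with r from -0.262 to 0.561 and a median of 0.132.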

Additional observations from a re-analysis of the deposited data

Results flagged for a closer look

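Within the 100 sets of 6 libraries of 1 strain, tissue and member, 7 had a highest or lowest library set off from the other 5 by more than the gap expected at the 95% level, and chance alone gives this in about 1 set in 20. In the submandibular gland these were Dbp in C57 female 1 (185 CPM), Per3 in CD1 female 2 (103 CPM) and Bmal1 in CD1 female 2 (2.61 CPM, the lowest of its set). In the pancreas it was Dbp in CD1 female 2 (27.6 CPM), 1 of the 2 pancreas libraries low in acinar markers. In the liver it was C57 male 2 for Tef (117 CPM), Per3 (15 CPM) and Npas2 (1.83 CPM), low for the first 2 and high for the third.

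The strain difference itself differed between tissues for Tef (edgeR F test, adjusted p = 0.0124), Nr1d2 (0.0207), Per3 (0.0281) and Ciart (0.0399), with the most negative fold change in the pancreas for each. Without the 3 unlike libraries Nr1d2 alone passed (0.0449). Leaving out 1 animal ended the call of Tef in 4 of 12 fits, of Per3 and Nr1d2 in 9 each and of Ciart in 11.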

How the results depend on the processing

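Of the members called for strain, Dbp in parotid, sublingual gland and pancreas, Nr1d1 in the sublingual gland and Tef, Per3, Nr1d2 and Bmal1 in the pancreas passed under every alternative tried. DESeq2 size factors in edgeR changed no member's call. Counts of members called for strain moved by over 1.5 times as follows. In the parotid, 1 became 4 with DESeq2, 5 with the replicate block and 5 with all 60 libraries in 1 fit. In the submandibular gland, 1 became 2 with DESeq2, 2 with no filter, 0 with the replicate block and 0 with all 60 libraries. In the sublingual gland 4 became 2 with all 60 libraries, and in the pancreas 8 became 5 with the replicate block, where Nr1d1 (adjusted p = 0.0695), Ciart (0.0680) and Npas2 (0.137) were lost. In the liver 0 became 1 with DESeq2, 2 with no filter and 1 with all 60 libraries. For sex in the submandibular gland 4 became 2 with all 60 libraries. Parotid against sublingual gland went from 0 to 1 with no filter, and submandibular gland against liver from 2 to 1, and the F test from 4 to 1, without the 3 unlike libraries. The cause was not tested.

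Leaving out each animal gave 0 to 5 members by the F test, and for strain 1 to 3 in parotid, 0 to 4 in submandibular gland and 0 to 2 in liver. For tissue pairs it gave 2 to 4 (pancreas against liver), 3 to 5 (parotid against liver), 0 to 1 (parotid against sublingual gland), 2 to 4 (sublingual gland against liver) and 1 to 3 (submandibular gland against liver). Signs turned only for members without a call. Per1 for strain came to 0.013 in parotid and 0.22 in submandibular gland with the replicate block. With an animal left out it ranged from -0.42 to 0.37 and from -0.21 to 0.56 there, Per2 in parotid from -0.14 to 0.28, Per3 in liver from -0.86 to 0.055, Ciart in liver from -0.20 to 0.50 and Per1 for sex in the submandibular gland from -0.66 to 0.11.

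The labels do not pair animals by number in any tissue, and the pairs used in the parotid rest on the correlations of these libraries. The counts that follow are given without a test. Of the 60 libraries, 27 correlated best with the library of their own number in the other strain, 12 of 12 in parotid, 7 in liver, 6 in sublingual gland and 1 each in submandibular gland and pancreas, and 19 of 60 did so between the sexes. The block for sex changed 1 member's call, Per2 in the submandibular gland (adjusted p = 0.0133). In the C57 pancreas, Npas2 and Bmal1 rest on 2 to 11 and 28 to 107 counts a library, so their levels there are imprecise, most of all for Npas2.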
